A study of Mus musculus with 8 samples.

Results

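The genes described here were 6 hormone receptor genes and 1 hormone-responsive gene, taken from the count table by symbol: Esr1, Pgr, Prlr, Nr3c1, Ghr, Vdr and Greb1. All 7 were present among the 23478 genes of the table, and all 7 passed the filter on low counts that 17069 genes passed. They were followed through 8 mouse RNA-seq libraries in 4 groups of 2. DCC control was made from disseminated cancer cells, recovered from the bone marrow of mice whose breast cancer had metastasised spontaneously, and left untreated. DCC IFN-gamma was made from such cells after treatment with interferon gamma, for which dose and duration are not given in the sources used here. Early lesion was made from cancer cells isolated from early mammary tumours, in samples whose titles name neuT, which is as background the usual name of an activated rat Erbb2 oncogene. TUBO is an untreated cell line that as background derives from a mammary carcinoma of a neuT mouse, so that group stands for 1 line. All 8 samples carry the genotype label WT and were grown by cell culture methods, and the sources used here give neither the age nor the strain of the animals nor the promoter behind neuT. The 2 libraries of a group are called biological replicates, without a statement that they came from separate animals or cultures, so each p-value measures the spread between these libraries.

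As background, Esr1, Pgr, Nr3c1 and Vdr encode nuclear receptors: the hormone crosses the membrane, binds the receptor in the cell, and the complex acts on DNA. Prlr and Ghr encode cell surface receptors of the cytokine receptor family that signal through the kinase Jak2 and the transcription factors Stat5a and Stat5b. In the mammary gland estrogen and progesterone drive the growth of the ducts and their side branches through receptors in a subset of luminal cells, prolactin drives alveolar development and milk production, and growth hormone acts largely on the stroma.

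Counts assigned to genes ranged from 15432210 to 30168475 per library. Levels are given in CPM, counts scaled to the size of each library with TMM factors, and differences as log2 fold changes with their standard error (SE). The cell type labels were checked against 8 markers of luminal mammary epithelium, which summed to 2865 and 3029 CPM in early lesion and to 5659 and 6114 CPM in TUBO. They summed to 2.34 and 2.56 CPM in DCC control and to 0.367 and 0.459 CPM in DCC IFN-gamma, where Epcam had no count. The 8 fibroblast markers ran the other way, with 7419 and 8545 CPM in DCC control, 708 and 1148 CPM in DCC IFN-gamma and 8.43 to 17.0 CPM in the 4 other libraries. The 6 basal epithelial markers summed to 68.5 and 82.0 CPM in DCC control and to 2.10 to 11.1 CPM in the 6 other libraries, and the DCC control sums were carried by Trp63, at 63.6 and 80.0 CPM. In DCC control 1 of the 4 tested was called higher than in early lesion and 3 higher than in TUBO (1 and 1 without the 2 libraries named next). Over all genes 19.1% were called higher in DCC control than in early lesion, and 22.1% higher than in TUBO. The luminal markers thus did not show the DCC libraries to be luminal. Every comparison of DCC with early lesion or TUBO below is also one between libraries that differ in these markers. In DCC control replicate 1 and early lesion replicate 2, 47.7% and 63.5% of 1429 olfactory and vomeronasal receptor genes, which these cells are not known to use, had at least 1 count, against 0.910% to 11.5% in the other 6 libraries. The same 2 libraries had the largest shares of reads outside annotated genes, 49.2% and 44.1%. They are called the high-background libraries below, and results that changed most when either or both were left out are given with those values.

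The receptors fell into opposite patterns. Esr1 and Ghr were higher in both DCC groups than in early lesion and TUBO, Nr3c1 likewise to a smaller extent, while Prlr and Vdr were higher in early lesion and TUBO than in either DCC group. Pgr was near the limit of detection in all 4 groups. Within the DCC groups interferon gamma went with more Ghr and more Nr3c1 RNA, but both calls depended on DCC control replicate 1. Without it the log2 fold changes were 1.23 for Ghr and 0.41 for Nr3c1. The libraries hold RNA of many cells, and fewer cells with a receptor cannot be told apart from less receptor RNA per cell.

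A gene was called different at an adjusted p under 0.05 in edgeR's quasi-likelihood test (Benjamini-Hochberg adjustment over all 17069 genes). Between DCC IFN-gamma and DCC control, 2 of the 7 genes were called higher and 0 lower, where 21.4% of all genes were called (12.6% higher and 8.83% lower). At an unadjusted p under 0.05, edgeR also placed 1 gene lower, Vdr, and DESeq2 called 1 lower, Prlr (adjusted p = 0.0495). The median log2 fold change was -0.40 over the 7 genes and -0.20 over all genes. In DCC control against early lesion 3 were called higher and 2 lower, beside 37.7% of all genes (19.1% and 18.7%). DCC control against TUBO gave 4 higher and 2 lower, beside 42.0% of all genes (22.1% and 19.9%). TUBO against early lesion gave 0 higher and 4 lower, beside 24.1% (11.4% and 12.7%). DCC IFN-gamma gave 3 higher and 2 lower against early lesion, beside 41.9% (22.7% and 19.2%), and 4 higher and 2 lower against TUBO, beside 44.0% (24.4% and 19.6%). With 7 genes, the share in the first comparison lies near that of all genes, and large parts of the transcriptome differed in the others. These comparisons share libraries (DCC control enters 3 of them), so they are not independent of each other.

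**Figure D1:**
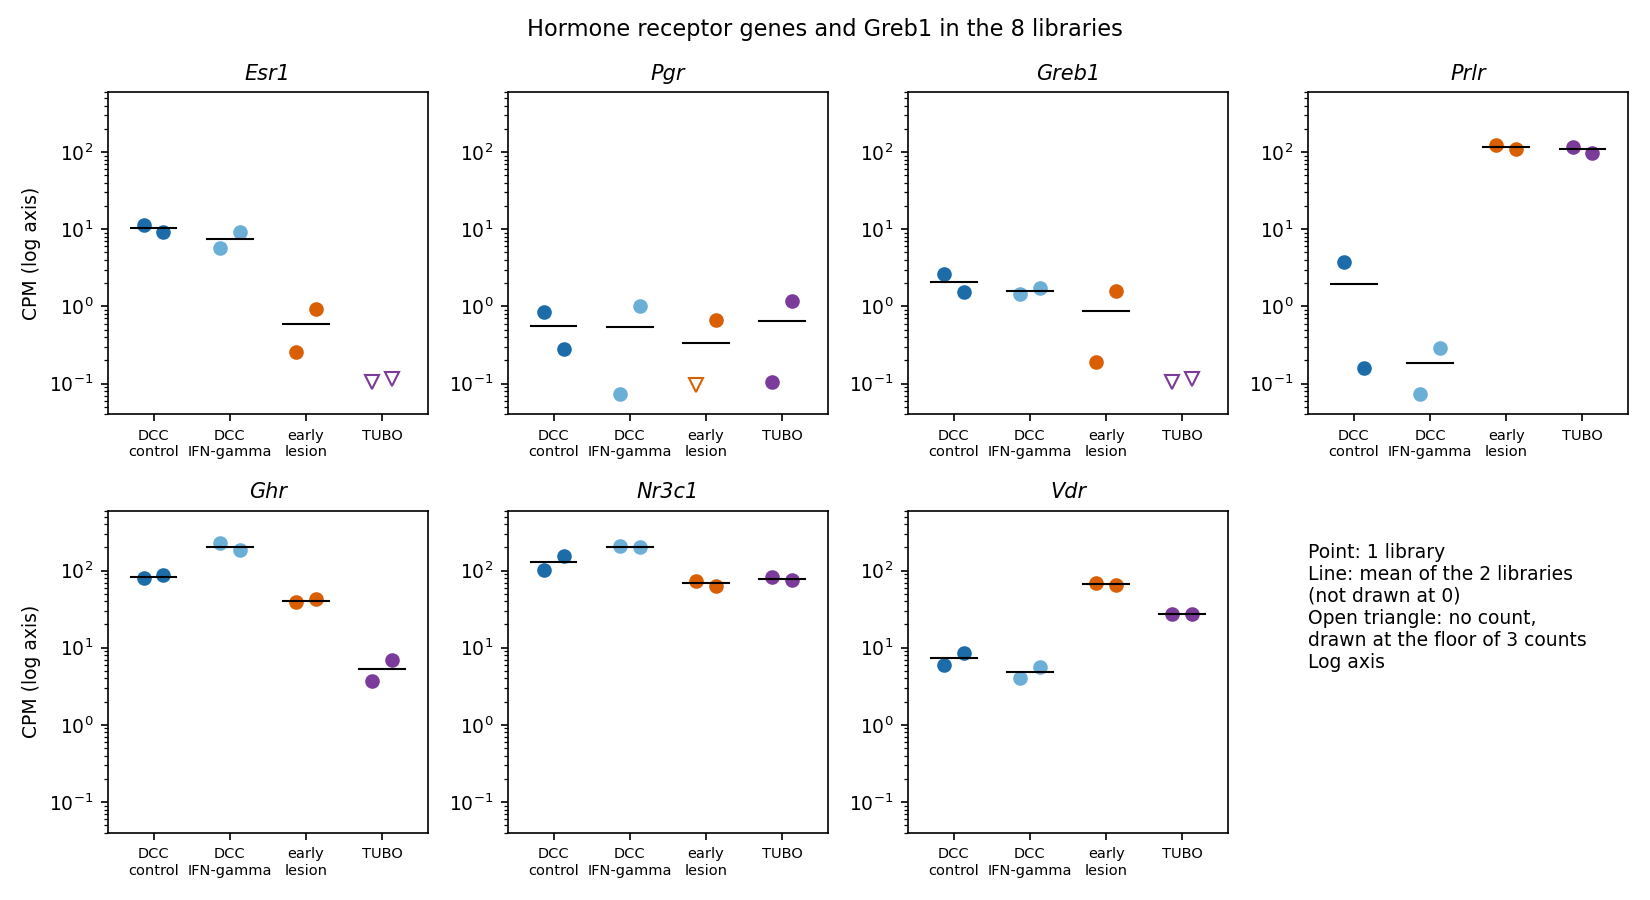
Level of each gene in CPM (vertical log axis) by group, 1 point per library and a line at the mean of 2 libraries; open triangles mark libraries with no count, drawn at the CPM of 3 counts. Vdr is highest in early lesion, Prlr is high in early lesion and TUBO alike, Esr1 and Ghr are higher in the DCC groups than in early lesion and TUBO, and Pgr lies at or below 1.18 CPM in every library.

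Among the ovarian hormone receptors, Esr1 (estrogen receptor alpha; chromosome 10, 4611593 to 5005614 on the plus strand of GRCm38, GENCODE M21) was at 11.5 and 9.11 CPM in DCC control, from 189 and 230 counts. It was at 5.68 and 9.22 CPM in DCC IFN-gamma, from 155 and 221 counts. In early lesion it was at 0.254 and 0.937 CPM, from 8 and 21 counts, and in TUBO both libraries had 0 counts, which allows up to 3 counts or 0.103 and 0.114 CPM. The lowest DCC library was thus above the highest early lesion library, and early lesion was above TUBO, while the 2 DCC groups overlapped. Esr1 was 17.3-fold higher in DCC control than in early lesion (log2 fold change 4.14 ± 0.72 SE, adjusted p = 0.00143). Against TUBO, Esr1 was at least 94.6-fold higher in DCC control (adjusted p = 8.25e-05), taking each TUBO library at 3 counts. In DCC IFN-gamma it was 12.5-fold higher than in early lesion (log2 fold change 3.67 ± 0.71, adjusted p = 0.00235) and at least 68.4-fold higher than in TUBO (adjusted p = 1.03e-04).

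How far Esr1 stood above early lesion depended on the early lesion library used. Without replicate 2 the log2 fold change was 5.31 for DCC control and 4.84 for DCC IFN-gamma, without replicate 1 it was 3.45 and 2.99, and all stayed called. Replicate 2 had 21 Esr1 counts. The density of counts over 1390 olfactory and vomeronasal receptor genes, taken over the exons of Esr1, amounts to 10.01 counts there. For DCC control replicate 1 this expectation was 12.6 counts of the 189 observed. The 1390 genes were those with an exon length and no count in TUBO, so their density in TUBO is 0 by construction. This choice also lowers the expectation in the high-background libraries. In early lesion replicate 2 the 1390 genes held 3798 counts, against 7873 over all 1429 such genes. In TUBO, Esr1 was at least 5.47-fold lower than in early lesion (adjusted p = 0.00669), a call that ended without the high-background libraries (adjusted p = 0.0528). Interferon gamma left no called difference in Esr1 (log2 fold change -0.47 ± 0.61, adjusted p = 0.602).

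Pgr, the progesterone receptor and itself an estrogen target in many tissues (chromosome 9, 8899833 to 8968611, plus strand), was hardly detected. Its counts were 14 and 7 for DCC control, 2 and 24 for DCC IFN-gamma, 0 and 15 for early lesion, and 3 and 31 for TUBO. The 4 groups overlapped throughout, with CPM from 0 to 1.18. Log2 fold changes ran from -0.26 to 0.95 over the 6 comparisons with adjusted p from 0.790 to 1, and the SE of the DCC IFN-gamma comparison with DCC control was 2.31. No difference in Pgr was detected, and libraries of the same group differed widely, as with 2 and 24 counts. Of the 14 and 15 counts in the high-background libraries, 7.86 and 6.26 would be reached at the density of the 1390 olfactory and vomeronasal genes. With the receptor genes counted in TUBO included, more would be reached.

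Greb1, an estrogen-induced cofactor of estrogen receptor alpha (chromosome 12, 16670615 to 16800886, minus strand), was measured at 2.62 and 1.54 CPM in DCC control, with 1.43 and 1.71 CPM in the treated cells of DCC IFN-gamma. It was at 0.191 and 1.56 CPM in early lesion, from 6 and 35 counts, and had no count in TUBO. Early lesion replicate 2 lay within the DCC range and replicate 1 below it, and TUBO lay below all 6 other libraries. Against TUBO, Greb1 was at least 19.1-fold higher in DCC control (adjusted p = 0.00903) and at least 14.4-fold higher in DCC IFN-gamma (adjusted p = 0.0103). It was not called between DCC control and early lesion (log2 fold change 1.25 ± 1.37, adjusted p = 0.579), between DCC IFN-gamma and early lesion (0.85, adjusted p = 0.635), or with interferon gamma (-0.40 ± 1.34, adjusted p = 0.848). Against early lesion the Greb1 value depended on the early lesion library: it was 3.41 for DCC control and 3.01 for DCC IFN-gamma without replicate 2, 0.41 and 0.011 without replicate 1, and 2.99 and 3.01 without both high-background libraries, and was called in none of these. In TUBO it was at least 8.04-fold lower than in early lesion (adjusted p = 0.0291), but the call ended without early lesion replicate 2 (adjusted p = 0.108), without TUBO replicate 1 (0.0836) or TUBO replicate 2 (0.1000), with a replicate block (0.0564), and without the high-background libraries (0.190). At olfactory and vomeronasal density 7.02 of the 35 counts in early lesion replicate 2 and 8.81 of the 43 in DCC control replicate 1 would be reached.

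**Figure D2:**
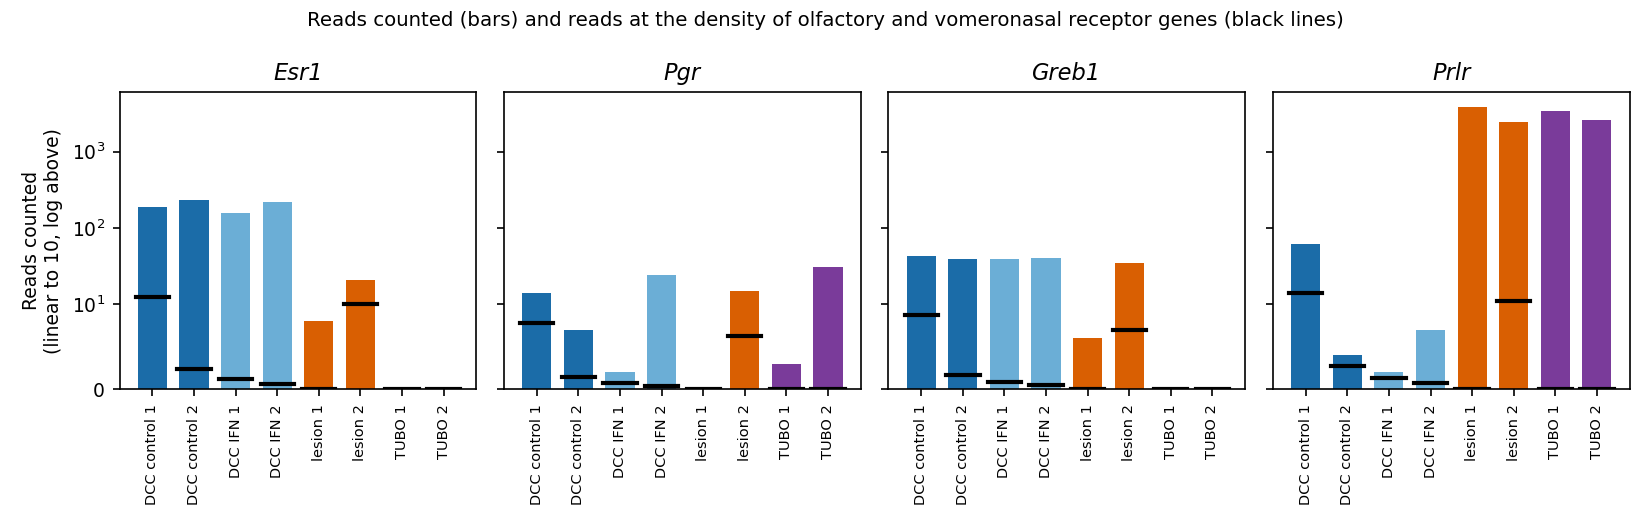
Reads counted for Esr1, Pgr, Greb1 and Prlr in each library (bars; vertical axis linear to 10 and logarithmic above) and the reads reached at the count density of 1390 olfactory and vomeronasal receptor genes (black lines). The 1390 genes were those with no count in TUBO, so the TUBO lines lie at 0 by construction. The lines are highest in replicate 1 of DCC control and replicate 2 of early lesion. There they come nearest to the bars of Pgr and of early lesion Esr1, while the Esr1 bars of the DCC groups stand far above them.

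Windows of 250 bases before a start site are printed for Esr1 and Greb1, which were higher in the DCC groups than in TUBO, so that the sequence can be read beside the levels. Both come from RefSeq's annotation of GRCm38.p6. For Esr1 the window is chr10:4709908-4710157 on the plus strand, and for Greb1 it is chr12:16800887-16801136 on the minus strand. Capitals mark matches on either strand to TTCNNNGAA, the GAS motif bound by STAT factors, or to GGTCA, the half-site of the estrogen response element. The Esr1 window held 1 GAS match and no half-site, and the Greb1 window held 1 half-site and no GAS match. Each gene has 2 annotated starts: the other Esr1 window, not printed because it lies wholly in annotated exons, held neither motif, and the other Greb1 window, not printed, held 2 half-sites. Over 32851 windows of the same length, 7.02% held a GAS match and 35.2% a half-site. A match of letters is a description only.
Esr1: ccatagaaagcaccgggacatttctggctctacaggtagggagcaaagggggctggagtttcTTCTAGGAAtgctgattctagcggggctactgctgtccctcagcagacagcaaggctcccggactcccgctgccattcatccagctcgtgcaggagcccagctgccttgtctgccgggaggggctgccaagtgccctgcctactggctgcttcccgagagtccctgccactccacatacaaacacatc
Greb1: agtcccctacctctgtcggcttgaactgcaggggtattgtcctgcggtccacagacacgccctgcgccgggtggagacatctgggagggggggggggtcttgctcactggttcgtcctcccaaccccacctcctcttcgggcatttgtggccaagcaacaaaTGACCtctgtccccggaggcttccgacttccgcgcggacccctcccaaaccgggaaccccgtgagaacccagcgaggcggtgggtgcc

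Coregulators and partners of estrogen receptor alpha, compared between DCC control and early lesion or TUBO, were called in shares near those of all genes. Most of those called were lower in DCC control. Of the 11 genes tested, 1 was called higher and 3 lower in DCC control against early lesion, and 0 higher and 5 lower against TUBO (0 and 4 in each without the high-background libraries). Their median log2 fold changes were -0.31 and -0.65, where all genes had 0.23 and 0.37, and the shares of all genes called were 37.7% and 42.0%. In DCC IFN-gamma 0 were called higher and 3 lower against early lesion, beside 41.9% of all genes. Against TUBO these were 1 and 7, beside 44.0%. With interferon gamma 0 were called higher and 1 lower, beside 21.4%. TUBO against early lesion gave 1 higher and 2 lower, beside 24.1%. Gata3, a luminal transcription factor that acts with Esr1, was at 5.72 and 3.604 CPM in DCC control against 204 and 164 CPM in early lesion (log2 fold change -5.32 ± 0.32, adjusted p = 1.29e-06). Tfap2c, a further luminal transcription factor, was at 0.852 and 0.0792 CPM against 458 and 423 CPM (log2 fold change -10.10 ± 0.69, adjusted p = 4.51e-05; -12.42 without the high-background libraries). Ncoa1, a steroid receptor coactivator, was 3.14-fold lower in DCC control than in early lesion (adjusted p = 2.27e-05). Thus the groups with the most Esr1 RNA had the least Gata3 and Tfap2c RNA, and no library of one kind overlapped the other.

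Known estrogen and progesterone target genes did not follow Esr1 as a group. Of 10 tested, 3 were called higher and 3 lower in DCC control against early lesion, and 2 higher and 5 lower against TUBO. Over all genes 19.1% were called higher and 18.7% lower in the first, and 22.1% and 19.9% in the second. With interferon gamma 12.6% of all genes were called higher and 8.83% lower. Cxcl12, a chemokine, was at 85.1 and 119 CPM in DCC control, 3.59 and 4.77 CPM in early lesion, and 0.0345 and 0 CPM in TUBO. It was 24.4-fold higher in DCC control than in early lesion (adjusted p = 6.26e-07). Areg, the growth factor amphiregulin, ran the opposite way, with 2.13 and 0.713 CPM in DCC control, 19.9 and 18.4 CPM in early lesion, and 31.1 and 30.2 CPM in TUBO (13.5-fold lower in DCC control than in early lesion, log2 fold change -3.81, adjusted p = 6.99e-05; -4.79 without the high-background libraries). With interferon gamma 1 rose and 4 fell (1 and 3 without the high-background libraries): Ccnd1, encoding cyclin D1, went from 343 and 404 CPM to 2760 and 2156 CPM (a difference of 2.72 ± 0.21 on the log2 scale, adjusted p = 1.74e-05), and Cxcl12 fell to 25.2 and 21.4 CPM (a log2 fold change of -2.13 ± 0.24, adjusted p = 2.16e-04).

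Turning to the mammotropic receptors, Prlr (prolactin receptor; chromosome 15, 10177238 to 10349180, plus strand) was at 122 and 110 CPM in early lesion and at 118 and 98.4 CPM in TUBO. In DCC control it was at 3.77 and 0.158 CPM, from 62 and 4 counts. In DCC IFN-gamma it was at 0.0733 and 0.292 CPM, from 2 and 7 counts. All 4 early lesion and TUBO libraries lay far above all 4 DCC libraries, and early lesion and TUBO overlapped. Prlr was 58.9-fold lower in DCC control than in early lesion (log2 fold change -6.03 ± 0.95, adjusted p = 0.00282) and 54.9-fold lower than in TUBO (-5.93 ± 0.94, adjusted p = 0.00284). In DCC IFN-gamma the log2 fold changes were -9.32 ± 1.20 against early lesion (adjusted p = 0.00101) and -9.22 ± 1.20 against TUBO (adjusted p = 0.00105). TUBO and early lesion were not called different (-0.10 ± 0.71, adjusted p = 0.933).

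The size of the Prlr difference rested on DCC control replicate 1, whose 62 counts compare with 4 in replicate 2. Without it, the log2 fold change of Prlr in DCC control was -9.47 against early lesion and -9.37 against TUBO. Without DCC control replicate 2 it was -4.94 and -4.84. The DCC IFN-gamma values of Prlr moved to -10.58 and -10.41 without DCC IFN-gamma replicate 2 and to -8.61 and -8.51 without replicate 1. At olfactory and vomeronasal density 14.1 of the 62 counts would be reached. With interferon gamma, Prlr was not called in edgeR (log2 fold change -3.29 ± 1.45, adjusted p = 0.169), reached an adjusted p of 0.0495 in DESeq2, was called without DCC control replicate 2 (adjusted p = 1.22e-05), and reversed to 0.15 without DCC control replicate 1.

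Ghr, the growth hormone receptor (chromosome 15, 3317760 to 3583492, minus strand), was at 80.1 and 87.1 CPM in DCC control and rose to 225 and 183 CPM in DCC IFN-gamma. It was at 38.6 and 42.8 CPM in early lesion and at 3.66 and 6.90 CPM in TUBO. No library of any group overlapped those of another, and the order was DCC IFN-gamma, DCC control, early lesion, TUBO. With interferon gamma it rose 2.44-fold, or by 1.29 ± 0.24 on the log2 scale (adjusted p = 0.00499). That call ended when DCC control replicate 1 was left out (1.23, adjusted p = 0.0511), and also without both high-background libraries (adjusted p = 0.0818).

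Between the untreated groups, Ghr was 2.05-fold higher in DCC control than in early lesion (log2 fold change 1.04 ± 0.24, adjusted p = 0.00739). This call ended without early lesion replicate 1 (log2 fold change 0.97, adjusted p = 0.0532) and without the high-background libraries (1.17, adjusted p = 0.0742), while the fold stayed about as large. It was 15.8-fold higher in DCC control than in TUBO (3.99 ± 0.28, adjusted p = 2.81e-06) and 7.71-fold lower in TUBO than in early lesion (-2.95 ± 0.27, adjusted p = 6.42e-05). DCC IFN-gamma stood 5.01-fold above early lesion (2.33 ± 0.25, adjusted p = 5.48e-05) and 38.7-fold above TUBO (5.28 ± 0.29, adjusted p = 5.71e-07). The largest Ghr contrast was therefore the one between DCC IFN-gamma and TUBO, out of the 6 compared.

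Prlr and Ghr, receptors of the same family, ran in opposite directions between the DCC groups and TUBO, and a RefSeq window of GRCm38.p6 is printed for each, made and marked as above. For Prlr it is chr15:10223656-10223905 on the plus strand, with 1 GAS match and no half-site; of the 3 annotated Prlr starts it was picked because it holds a match, and the windows of the other two hold neither motif. For Ghr it is chr15:3581843-3582092 on the minus strand, with neither, as is the case for the window of the other annotated Ghr start.
Prlr: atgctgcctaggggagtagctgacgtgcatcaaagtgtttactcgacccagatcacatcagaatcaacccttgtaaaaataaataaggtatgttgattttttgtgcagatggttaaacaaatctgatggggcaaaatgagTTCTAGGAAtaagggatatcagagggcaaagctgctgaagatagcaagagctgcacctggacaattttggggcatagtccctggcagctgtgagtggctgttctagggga
Ghr: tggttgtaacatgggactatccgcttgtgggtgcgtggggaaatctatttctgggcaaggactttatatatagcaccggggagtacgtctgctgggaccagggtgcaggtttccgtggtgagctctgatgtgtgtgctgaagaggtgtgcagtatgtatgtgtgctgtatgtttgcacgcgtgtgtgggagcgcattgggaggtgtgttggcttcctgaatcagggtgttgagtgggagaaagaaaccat

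Of 12 genes of prolactin and growth hormone signalling, 3 were called higher and 5 lower in DCC control against early lesion, and 2 higher and 6 lower against TUBO (1 and 4, and 2 and 4, without the high-background libraries). Over all genes 37.7% and 42.0% were called in these comparisons. Elf5, an alveolar transcription factor induced by prolactin, was at 0 and 1.39 CPM in DCC control and had no count in DCC IFN-gamma. It had 143 and 127 CPM in early lesion and 109 and 111 CPM in TUBO. It was 195-fold lower in DCC control than in early lesion (log2 fold change -7.39 ± 0.80, adjusted p = 0.00114; -6.68 without the high-background libraries). Socs2, a Stat5-induced inhibitor of growth hormone signalling, was at 13.6 and 17.2 CPM in DCC control, 13.7 and 29.4 CPM in DCC IFN-gamma, 342 and 312 CPM in early lesion, and 349 and 340 CPM in TUBO. It was 21.2-fold lower in DCC control than in early lesion (log2 fold change -4.40 ± 0.36, adjusted p = 3.33e-05). Elf5 and Socs2 were thus low in the DCC groups and high in the other groups, as Prlr was and unlike Ghr. Socs1, on the same list and described below, ran the other way. It was at 0.795 and 1.25 CPM in early lesion and at 0.345 and 0 CPM in TUBO. Its log2 fold change in DCC control against early lesion was 4.55 ± 0.52 (adjusted p = 2.54e-04).

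With interferon gamma 4 of the same 12 genes rose and 1 fell, beside the 21.4% of all genes called. Socs1, which inhibits Jak kinases, was at 24.7 and 22.5 CPM in DCC control and at 70.7 and 99.3 CPM in DCC IFN-gamma (log2 fold change 1.85 ± 0.42, adjusted p = 0.0179). Socs3, a related inhibitor, was at 34.9 and 38.2 CPM and at 107 and 353 CPM (log2 fold change 2.65 ± 0.56, adjusted p = 0.0197). Irs1, an adaptor of insulin and growth factor receptors, fell from 386 and 449 CPM to 173 and 128 CPM (a log2 fold change of -1.47 ± 0.18, adjusted p = 3.50e-04). Without the high-background libraries, 0 were called higher and 2 lower, with log2 fold changes of 1.91 for Socs1 (adjusted p = 0.142) and 2.59 for Socs3 (adjusted p = 0.129), close to those with all libraries. Both calls also ended without either DCC control library alone, that of Socs1 without DCC IFN-gamma replicate 2, and that of Socs3 without either TUBO library.

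Nr3c1, the glucocorticoid receptor (chromosome 18, 39410545 to 39519421, minus strand), had the narrowest range among the well-detected genes. Its level was 103 and 154 CPM in DCC control and 206 and 201 CPM in DCC IFN-gamma. Early lesion had 73.8 and 64.0 CPM, and TUBO 82.1 and 75.5 CPM. The 4 groups did not overlap, although DCC control replicate 1 lay closer to TUBO replicate 1 than to its own partner. Nr3c1 rose 1.59-fold with interferon gamma (log2 fold change 0.67 ± 0.19, adjusted p = 0.0321). The call ended without DCC control replicate 1 (0.41, adjusted p = 0.239), without DCC IFN-gamma replicate 1 (adjusted p = 0.0536), without both high-background libraries (adjusted p = 0.306), and in a fit of the 2 DCC groups alone (adjusted p = 0.0557).

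In DCC control, Nr3c1 was 1.86-fold higher than in early lesion (log2 fold change 0.89 ± 0.19, adjusted p = 0.00389) and 1.63-fold higher than in TUBO (0.70 ± 0.19, adjusted p = 0.0135). Without DCC control replicate 2 both calls ended (adjusted p = 0.0529 and 0.194), and without TUBO replicate 2 the second ended (adjusted p = 0.0900). DCC IFN-gamma was 2.96-fold above early lesion (1.56 ± 0.20, adjusted p = 1.01e-04) and 2.59-fold above TUBO (1.37 ± 0.19, adjusted p = 2.36e-04), and both stayed called whichever library was left out. Although the libraries did not overlap, TUBO and early lesion were not called different (0.19 ± 0.19, adjusted p = 0.472).

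With interferon gamma 21.4% of all genes were called, 12.6% higher and 8.83% lower. Among glucocorticoid target genes, those called higher in DCC IFN-gamma outnumbered those called lower. Of 12 tested, 6 rose and 1 fell with interferon gamma (5 and 1 without the high-background libraries), with a median log2 fold change of 1.10 where all genes had -0.20. Sgk1, a serum- and glucocorticoid-induced kinase, went from 65.3 and 54.9 CPM to 337 and 502 CPM (a difference of 2.81 ± 0.21 on the log2 scale, adjusted p = 1.41e-05). Errfi1, an inhibitor of the epidermal growth factor receptor family, went from 139 and 141 CPM to 560 and 638 CPM (2.10 ± 0.15, adjusted p = 1.24e-05). Dusp1, a phosphatase of MAP kinases, went from 23.3 and 19.5 CPM to 237 and 768 CPM (4.56 ± 0.66, adjusted p = 0.00457), a call that ended without either DCC control library alone. Tsc22d3, described below, went the other way, from 71.8 and 82.9 CPM to 18.7 and 24.8 CPM. Many of the 12 genes also respond to other signals, and which signal moved them was not tested.

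Against early lesion, 5 of the 12 were called higher and 2 lower in DCC control, and 8 higher and 1 lower in DCC IFN-gamma (4 and 2, and 6 and 1, without the high-background libraries). Over all genes 37.7% and 41.9% were called in these comparisons. Tsc22d3, the glucocorticoid-induced leucine zipper gene, was at 71.8 and 82.9 CPM in DCC control and 18.7 and 24.8 CPM in DCC IFN-gamma. It had 6.52 and 5.80 CPM in early lesion, and 14.5 and 10.3 CPM in TUBO. It was 12.6-fold higher in DCC control than in early lesion (log2 fold change 3.65 ± 0.25, adjusted p = 1.56e-06). Fkbp5, a chaperone of the receptor and itself a target, ran the other way: 11.99 and 8.12 CPM in DCC control, 26.2 and 20.8 CPM in DCC IFN-gamma, 52.7 and 42.3 CPM in early lesion, and 75.6 and 72.8 CPM in TUBO. Its log2 fold change was -2.25 ± 0.23 in DCC control against early lesion (adjusted p = 3.09e-05) and 1.23 ± 0.23 with interferon gamma (adjusted p = 0.00382). These are both textbook targets of the receptor, and between DCC control and the other untreated groups they pointed opposite ways. With interferon gamma they also parted, as the level of Tsc22d3 went down while those of Fkbp5 and Nr3c1 went up.

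Of 11 chaperones of steroid receptors, 8 rose and 0 fell with interferon gamma, with a median log2 fold change of 0.61. Over all genes 12.6% were called higher and 8.83% lower, and the median was -0.20. Hspa8, a constitutive Hsp70, went from 1705 and 1739 CPM to 5719 and 4538 CPM (a log2 fold change of 1.57 ± 0.20, adjusted p = 4.58e-04), and Hsp90aa1, an Hsp90, from 722 and 787 CPM to 2243 and 1686 CPM (1.38 ± 0.20, adjusted p = 7.91e-04). Without the high-background libraries the count was 3 higher and 0 lower.

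Vdr, the vitamin D receptor (chromosome 15, 97854425 to 97910630, minus strand), was at 69.3 and 64.6 CPM in early lesion and at 27.2 and 27.2 CPM in TUBO. It was at 6.03 and 8.59 CPM in DCC control and at 3.995 and 5.59 CPM in DCC IFN-gamma. Its groups did not overlap and ran in the order early lesion, TUBO, DCC control, DCC IFN-gamma. Vdr was 9.16-fold lower in DCC control than in early lesion (log2 fold change -3.19 ± 0.25, adjusted p = 3.77e-06) and 3.72-fold lower than in TUBO (-1.89 ± 0.24, adjusted p = 1.13e-04). DCC IFN-gamma was 14.0-fold below early lesion (-3.81 ± 0.25, adjusted p = 1.18e-06) and 5.68-fold below TUBO (-2.51 ± 0.24, adjusted p = 1.67e-05). TUBO was 2.46-fold below early lesion (-1.30 ± 0.23, adjusted p = 0.00226), and all 5 of these calls stayed whichever library was left out. With interferon gamma Vdr was not called (-0.62 ± 0.24, adjusted p = 0.0988), but it was called without DCC IFN-gamma replicate 2 (-0.84, adjusted p = 0.0276).

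Of 10 tested genes of the vitamin D pathway, 3 were called higher and 2 lower in DCC control against early lesion (1 and 2 without the high-background libraries). Over all genes 19.1% were called higher and 18.7% lower there. Trpv6, an epithelial calcium channel induced by vitamin D, was at 1.58 and 0.356 CPM in DCC control and had no count in DCC IFN-gamma. It had 32.3 and 29.6 CPM in early lesion and 48.6 and 51.7 CPM in TUBO. Its log2 fold change in DCC control against early lesion was -5.10 ± 0.53 (adjusted p = 2.41e-04), and -6.48 without the high-background libraries. Cyp24a1, the enzyme that degrades active vitamin D and a target of Vdr, was at 0.852 and 0.238 CPM in DCC control, 0 in DCC IFN-gamma, 11.5 and 11.3 CPM in early lesion, and 1.45 and 3.09 CPM in TUBO (-4.42 ± 0.81, adjusted p = 0.00200; -5.57 without these libraries). Both were low in the DCC groups, like Vdr. Bglap, the osteoblast protein osteocalcin and on the same list, had levels opposite to those of Vdr between these groups. It was at 12.8 and 5.70 CPM in DCC control, at 0 and 0.134 CPM in early lesion, and had no count in TUBO. It was at least 84.8-fold higher in DCC control than in TUBO (adjusted p = 9.36e-04). The list does not say in which direction vitamin D acts on its genes. Beside it, the 7 osteoblast markers, Bglap among them, summed to 2367 and 2711 CPM in DCC control and to 32.8 and 33.4 CPM in early lesion, and their part in the result was not tested.

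**Figure D3:**
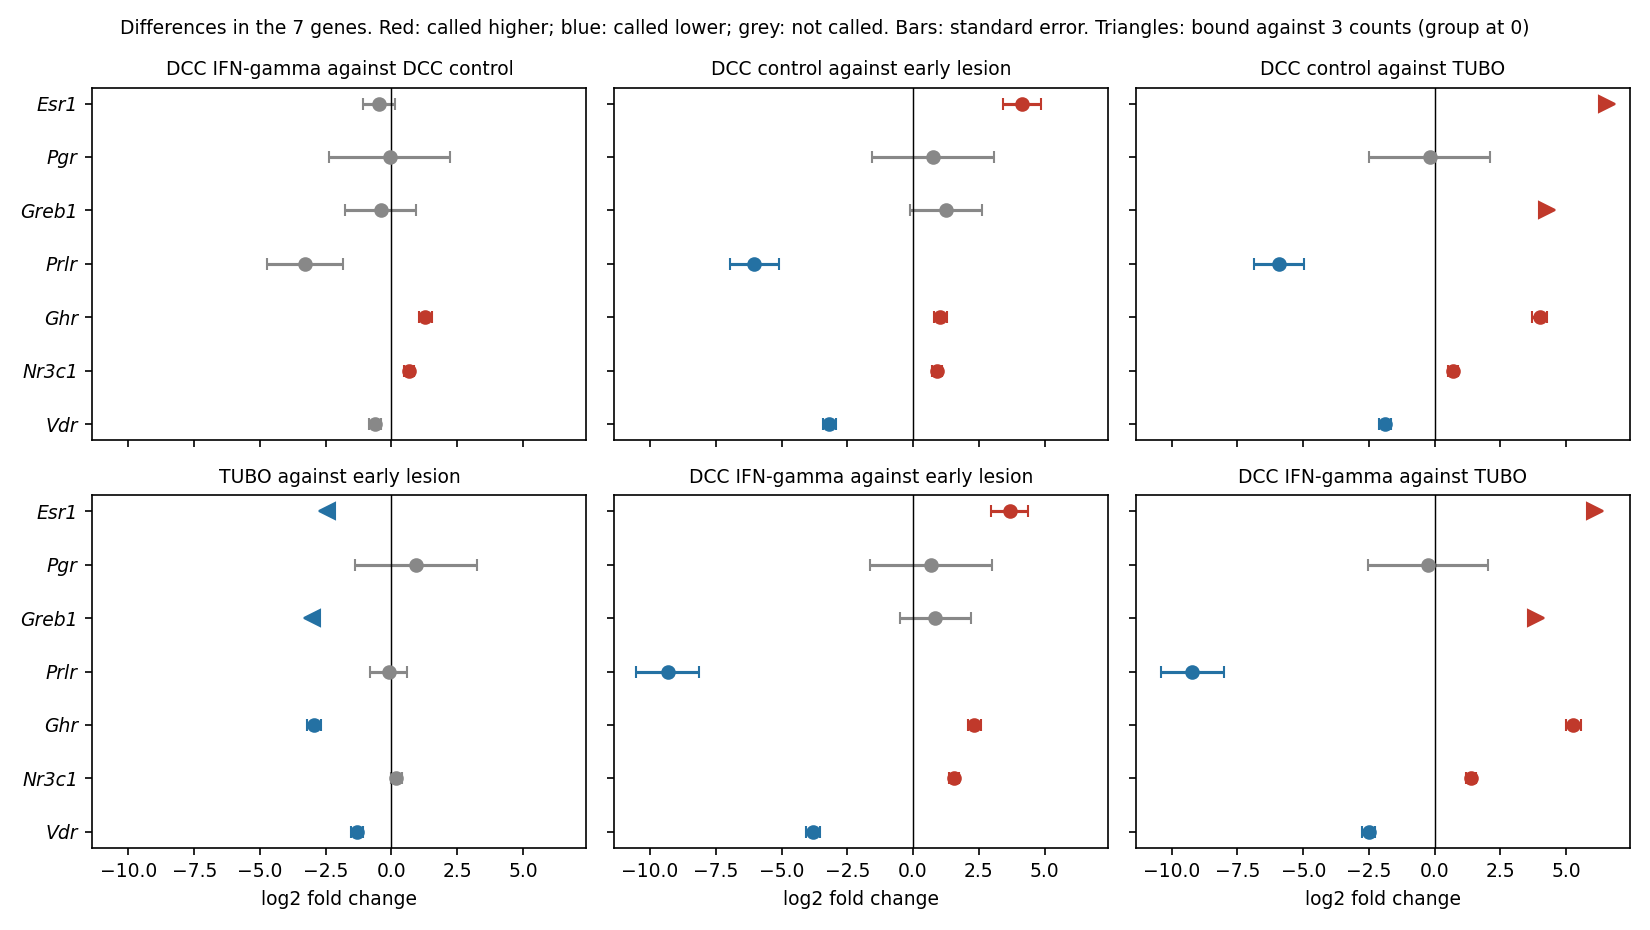
Log2 fold change (horizontal axis) of each gene in the 6 comparisons, with bars of 1 standard error; red is called higher, blue called lower and grey not called, and triangles are bounds for Esr1 and Greb1 against TUBO, or in TUBO, taken at 3 counts. Prlr and Vdr lie left of 0 in all 4 comparisons of a DCC group with early lesion or TUBO, where Esr1, Ghr and Nr3c1 lie right of it.

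Per kilobase of exon, the order of the genes also changed between groups. In the DCC control libraries Nr3c1 led with 13.3 and 19.99 CPM per kilobase, followed by Ghr with 8.85 and 9.62 and Vdr with 1.07 and 1.52, while Esr1 had 0.842 and 0.667 CPM per kilobase. Prlr, with 0.246 and 0.0103, and Pgr, with 0.0997 and 0.0324, were at the bottom. In early lesion Vdr led with 12.3 and 11.4 CPM per kilobase, Nr3c1 followed with 9.61 and 8.33, and Prlr with 7.95 and 7.16. TUBO had Nr3c1 at 10.7 and 9.83 CPM per kilobase, Prlr at 7.67 and 6.41, Vdr at 4.82 and 4.82, and Ghr below them at 0.404 and 0.763. Nr3c1 was thus among the leading receptors in all 4 groups, and its levels per kilobase in the DCC control libraries were 13.3 or more against at most 10.7 in TUBO and early lesion.

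Of all genes, 37.7% were called in DCC control against early lesion, 42.0% against TUBO and 21.4% with interferon gamma. Other nuclear and hormone receptors did not share 1 pattern. Of 14 tested, 6 were called higher and 3 lower in DCC control against early lesion, and 6 higher and 4 lower against TUBO (4 and 2, and 4 and 4, without the high-background libraries). Rarb, a retinoic acid receptor, was at 1.04 and 1.58 CPM in DCC control and at 32.1 and 30.6 CPM in early lesion (log2 fold change -4.55 ± 0.34, adjusted p = 3.03e-06). Rarb was thus low in DCC control and high in early lesion, as Vdr was. With interferon gamma 1 rose and 3 fell, and without the high-background libraries these were 0 and 1. Thrb, a thyroid hormone receptor, went from 41.3 and 43.4 CPM to 15.6 and 23.4 CPM (a log2 fold change of -1.12 ± 0.24, adjusted p = 0.00738), a call that ended without these 2 libraries although the fold stayed (-1.16, adjusted p = 0.0804).

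Of 7 tested steroid-metabolising enzymes, 1 was called higher and 4 lower in DCC control against early lesion, beside 37.7% of all genes. Against TUBO 0 were called higher and 1 lower, beside 42.0% of all genes. Without the high-background libraries these were 0 and 3, and 0 and 0. Hsd17b4, a dehydrogenase that inactivates estradiol, was at 53.9 and 60.0 CPM in DCC control against 133 and 122 CPM in early lesion (log2 fold change -1.17 ± 0.15, adjusted p = 1.38e-04). Hsd17b7, which can form estradiol from estrone, was at 6.51 and 8.91 CPM against 30.9 and 27.1 CPM (-1.91 ± 0.35, adjusted p = 0.00155).

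**Figure D4:**
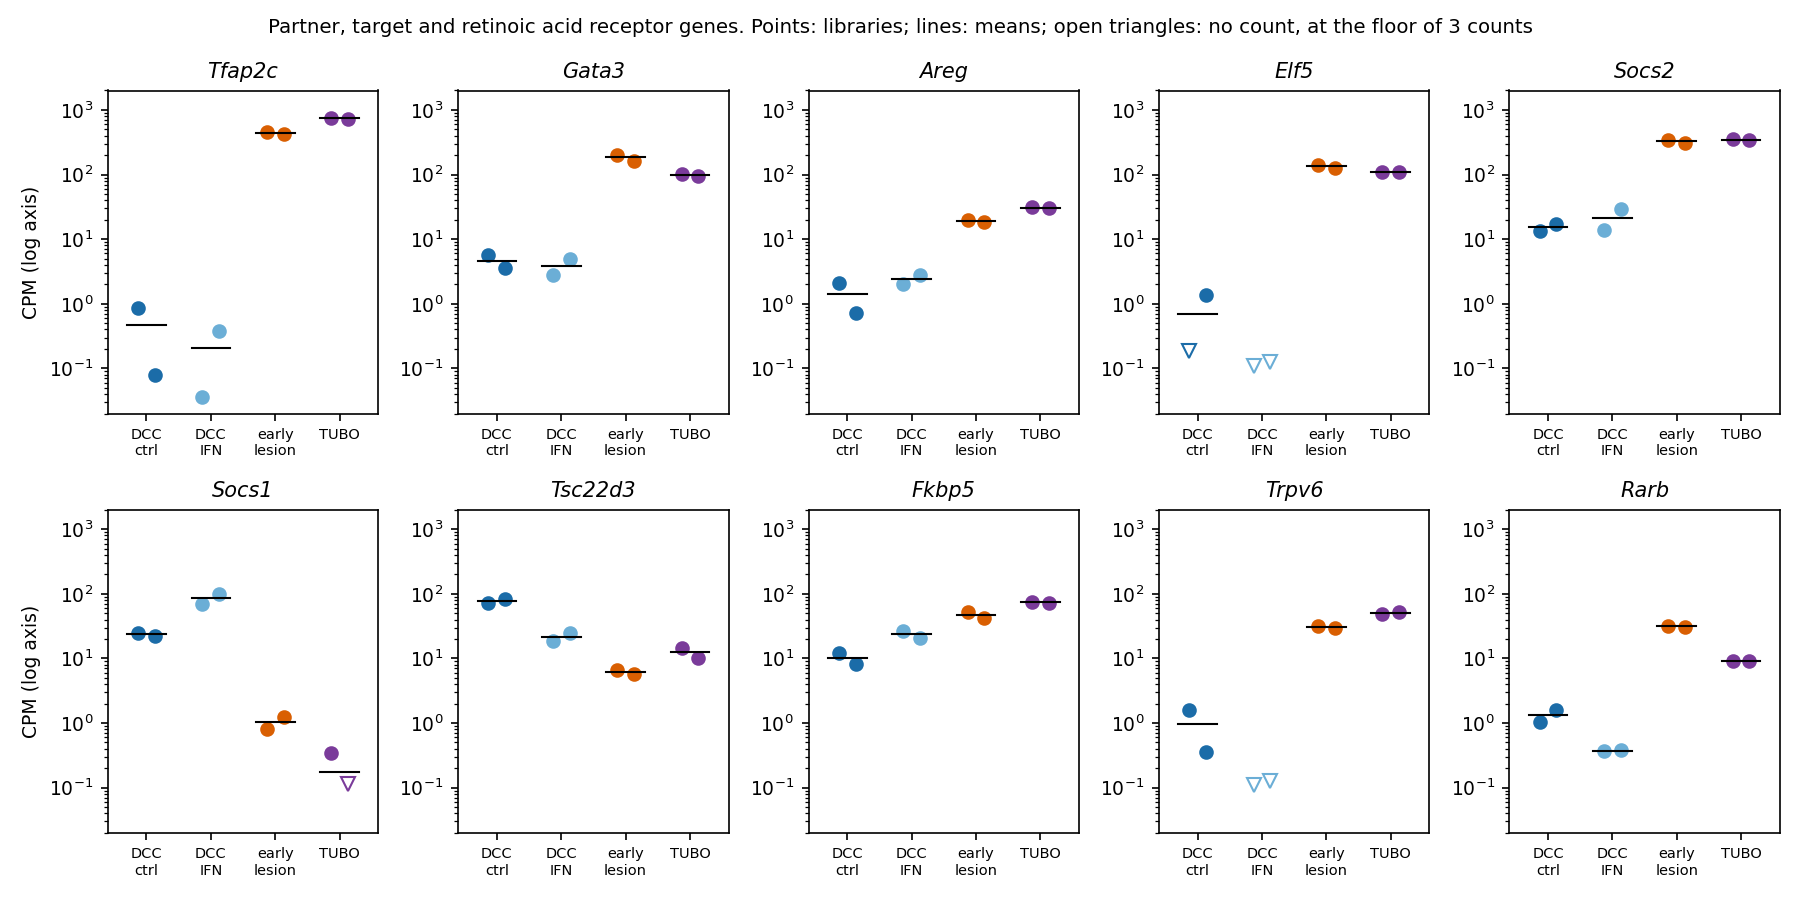
Level in CPM (vertical log axis) of 10 partner, target or receptor genes by group, 1 point per library, a line at the mean of 2, and open triangles at the CPM of 3 counts for libraries with none. Tfap2c, Gata3, Areg, Elf5, Socs2, Fkbp5, Trpv6 and Rarb are higher in early lesion and TUBO than in both DCC groups, and Socs1 and Tsc22d3 are higher in the DCC groups.

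Cell type markers also differed between the groups, in directions that varied by cell type. With interferon gamma, while Ghr and Nr3c1 rose, the 8 fibroblast markers fell in sum from 7419 and 8545 CPM to 708 and 1148 CPM. Of the 7 tested, 1 was called higher, 4 lower and 2 not called. Thy1 was at 0 in both treated libraries and in DCC control replicate 1. The 7 osteoblast markers fell in sum from 2367 and 2711 CPM to 138 and 257 CPM, with none at 0. Of these 0 were called higher and 3 lower. The 7 macrophage markers in the table (of 8 listed) went from 80.4 and 83.3 CPM to 1116 and 800 CPM, with none at 0. All 7 were called higher. Adipocyte markers, 8 in all, went from 66.9 and 60.1 CPM to 26.7 and 42.3 CPM, with Lep at 0 in both treated libraries. Of the 7 tested, 0 were called in either direction. Beside these, 12.6% of all genes were called higher and 8.83% lower with interferon gamma. The 4 markers of hormone-sensing luminal cells, the cells that carry Esr1 and Pgr in the normal gland, summed to 8.64 and 2.42 CPM in DCC control, 12.2 and 15.8 CPM in DCC IFN-gamma, 78.7 and 73.8 CPM in early lesion, and 19.9 and 15.0 CPM in TUBO. Among them Foxa1 was at or below 2.97 CPM in every library. The sum of early lesion was carried by Prom1, at 76.7 and 71.3 CPM, and that of DCC IFN-gamma by Tbx3, at 11.5 and 15.6 CPM, while Cited1 was highest in TUBO, at 17.1 and 11.98 CPM. The 4 markers thus differed in pattern among themselves, and in DCC control against early lesion 1 was called higher and 1 lower (1 and 2 without the high-background libraries). Over all genes 19.1% were called higher and 18.7% lower in that comparison. The 8 luminal alveolar markers are of the lineage in which Prlr acts. They summed to 14890 and 11225 CPM in early lesion and 3344 and 3695 CPM in TUBO. In the DCC libraries they summed to 1.62 to 3.83 CPM, with Lalba and Wap at 0 throughout, as they were in TUBO. Csn2 also had no count in TUBO, nor in early lesion replicate 1. What part these cell types had in the receptor levels was not tested.

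Likeness across all 8 libraries was measured as Pearson's r of log2 CPM against 11365 expressed genes. It is a description, since the points share their groups and libraries. The gene most like Esr1 was Htra1, a secreted serine protease (r = 0.997), then Apc2 and Morn4 (both 0.996). Nearest to Prlr came Cd177 (0.997), Stox2 (0.995) and Perp (0.995). Ghr had Dcp1a (0.995), Slc7a8 (0.990) and Btbd11 (0.990), and Vdr had Rnf167 (0.996), Ncapd2 (0.996) and Hist1h2bm (0.994). For Nr3c1 they were Mpi (0.984), Hnrpdl (0.982) and Picalm (0.980), and for Greb1 Abca13 (0.984), Nphp4 (0.978) and Slc16a10 (0.976). Among the 7 genes themselves, Esr1 and Greb1 had r = 0.947, Esr1 and Ghr 0.915, and Prlr and Nr3c1 -0.961, each over n = 8 libraries. Pgr lay between -0.21 and 0.24 with the other 6 genes.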

How the data were processed

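The 8 mouse RNA-seq libraries formed 4 groups of 2. Per the labels' protocols, RNA came from an RNeasy kit and libraries from a NuGEN Ovation mouse kit. Per the submitters' processing notes the tools were TopHat and HTSeq 0.6.1 with the genome mm10. Which gene annotation and strand setting the counting used is not given in the sources used here. Raw counts per gene symbol were deposited by the authors in 1 table of 23478 genes, with 5 closing lines of uncounted reads. These lines, which name no gene, held 35.2% to 63.7% of all reads and were left out of library sizes and tests.

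From the deposited counts, 17069 genes passed edgeR's filterByExpr (minimum count 10) and were tested with edgeR 4.0.16 in R 4.3.3: TMM normalization, a robust quasi-likelihood fit of 4 group means over all 8 libraries (4 residual degrees of freedom, common biological coefficient of variation 0.416), and Benjamini-Hochberg adjustment over all genes tested, with a threshold of 0.05. Sharing 1 spread between groups assumes that they vary alike. CPM values are counts scaled to the TMM-normalized size of each library. A group without counts was set to a floor of 3 counts per library, which covers counting error only. Counts were also simulated with 2 libraries per group. In DCC IFN-gamma against DCC control, 40% of 2-fold and 72% of 4-fold changes were called, run on 15615 genes. In the other comparisons 27% to 36% of 2-fold and 67% to 82% of 4-fold changes were called. The simulation gave each gene the same mean in all groups and then changed only a small set of genes above a minimum mean count. In the data 21.4% to 44.0% of genes were called. The simulated rates therefore need not hold for these comparisons, nor for genes with counts as low as those of Pgr.

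The 7 genes and all gene lists were chosen with earlier results of these data known. All 7 genes were named. From each list, up to 3 called genes per comparison were eligible by largest log2 fold change, with a mean of at least 5 CPM in the higher group, and a selection of these is given. For each of the 7 genes with a mean of at least 1 CPM in its highest group, the 3 most correlated genes were named (log2 CPM with a prior count of 2), leaving out predicted, olfactory and vomeronasal receptor genes. Exon lengths came from GENCODE M21, and 250-base windows from RefSeq sequence of GRCm38.p6.

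Alternatives were RLE factors, no filter, at least 50 counts in 2 libraries, DESeq2 1.42.0, a replicate block, a fit of only the 2 groups compared, each library left out in turn, and the high-background libraries (replicate 1 of DCC control, replicate 2 of early lesion) left out together (2 residual degrees of freedom). Where this leaves a group with 1 library, that library is assumed to vary like the other groups. DESeq2 gave no adjusted p for 331 to 1986 genes per comparison. Deviations of same-numbered libraries from their group means correlated between -0.43 and 0.096, and the numbers were not taken to pair libraries.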

Additional observations from a re-analysis of the deposited data

How the results depend on the processing

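Over all alternatives for the log2 fold changes of the 7 genes, 575 of 615 kept direction and side of the threshold, 17 lost the call, 4 gained one and 19 reversed, the reversals all in values that were not called. With only the 2 groups compared, 1 gene was called with interferon gamma and 2 in TUBO against early lesion. Without both high-background libraries these were 0 and 2, and over all genes 1654 were called with interferon gamma, 4112 in DCC control against early lesion and 1944 in TUBO against early lesion (from 3656, 6441 and 4117), with fewer libraries and fewer degrees of freedom by construction. In that fit the interferon gamma values of Pgr, Prlr and Greb1 reversed to 0.94, 0.15 and 0.022. Leaving out 1 library at a time gave 0 to 3 of the 7 genes called with interferon gamma, 2020 to 4128 of all genes there, and 2391 to 5175 in TUBO against early lesion. Reversals under these omissions were found for Pgr in all comparisons: with interferon gamma (-2.81 to 0.94), in DCC control against early lesion (-0.26 to 6.85) and TUBO (-1.20 to 2.38), in TUBO against early lesion (-1.63 to 7.05), and in DCC IFN-gamma against early lesion (-2.14 to 6.79) and TUBO (-3.01 to 2.32). They were also found for Prlr with interferon gamma (-4.41 to 0.15) and in TUBO against early lesion (-0.34 to 0.023), and for Greb1 with interferon gamma (-0.73 to 0.024). With the replicate block, Pgr in DCC control against TUBO reversed to 1.81, Greb1 in TUBO against early lesion lost its call (adjusted p = 0.0564), and no other call among the 7 genes changed. Without a filter on low counts Prlr was called with interferon gamma (adjusted p = 3.16e-13). Beyond the omissions themselves, the cause was not tested. Low counts limit Pgr, Greb1 and the low groups of Esr1 and Prlr, which rest on 62 counts or fewer per library.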
